A study of Saccharomyces cerevisiae with 4 samples.

Results

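The genes for proteins of the large subunit of the cytosolic ribosome were followed in cells that carried the genomes of a pair of yeast strains, either in 1 nucleus or in 1 flask. A gene was taken as a member when its systematic name had a standard name of RPL followed by a number, with A or B for paralogs, and when it did not lie on chromosome XIII. The annotation held 76 such genes and the read counts held 40, of which 2 lay on chromosome XIII, which left 38 members among 4442 gene pairs. The other 36 RPL genes were not analysed here. The members lay on 13 chromosomes, and 32 of them had an intron in the coding sequence. Both copies were members in 10 paralog pairs with 20 genes, 12 members had another copy that was no member, and 6 members (RPL3, RPL5, RPL10, RPL25, RPL29 and RPL39) had no second copy in the genome.

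In the hybrid, an a/alpha diploid, BY4741, a laboratory strain derived from S288C, had been crossed with RM11-1alpha, which comes from a vineyard isolate. The co-culture held haploid BY4741 and haploid RM11-1a cells of mating type a. Each group had 2 libraries, called replicates 1 and 2. The cultures, described as technical replicates, were grown at 30 °C and harvested at an OD600 of 1.0. The 2 groups differed in ploidy, mating type and RM parent at once, so these cannot be told apart in any comparison of hybrid with co-culture. STE2, the alpha-factor receptor gene of a cells, had 92 and 135 reads in the hybrid and 11229 and 13155 in the co-culture, which is the direction that the labelled mating types give.

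Large-subunit ribosomal proteins surround the rRNA of the peptidyl transferase centre and the tunnel through which the new chain leaves. Most are encoded in budding yeast by a pair of paralogs left from an ancient genome duplication, whose proteins are identical or nearly so, and the copies of a pair are often transcribed at unequal levels. Their genes are among the most strongly transcribed in growing yeast. Rap1 binds most of their promoters, where Fhl1 and Ifh1 join it, and the TOR pathway and its kinase Sch9 tie their output to nutrients. In a hybrid both alleles meet the same regulators, whereas in a co-culture each strain keeps its own.

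Near-identical copies limit how reads can be assigned, so the coding sequences of the pairs that the results below turn on are shown first. Capitals mark the bases at which the copies of a pair differ. The reference is the S288C assembly R64, which is close to BY, and no RM sequence was used. RPL14A (chrXI:431906-432720, plus strand) and RPL14B (chrVIII:104277-105091, plus strand) differ at 15 of 417 coding bases, 13 of them in coding bases 1 to 240, which are printed with the intron removed.
RPL14A: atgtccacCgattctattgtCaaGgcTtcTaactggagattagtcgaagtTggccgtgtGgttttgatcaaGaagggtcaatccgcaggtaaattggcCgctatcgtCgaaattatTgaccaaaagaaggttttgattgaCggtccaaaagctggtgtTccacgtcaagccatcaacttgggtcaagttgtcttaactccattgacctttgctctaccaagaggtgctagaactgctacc
RPL14B: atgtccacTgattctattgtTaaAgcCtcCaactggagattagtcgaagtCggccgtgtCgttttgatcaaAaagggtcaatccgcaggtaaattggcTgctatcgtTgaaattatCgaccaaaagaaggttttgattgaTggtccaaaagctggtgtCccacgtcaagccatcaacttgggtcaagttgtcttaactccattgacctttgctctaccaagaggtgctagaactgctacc
RPL26A (chrXII:819312-820142, plus strand) and RPL26B (chrVII:555812-556672, plus strand) differ at 26 of 384 coding bases, 18 of them in bases 1 to 240.
RPL26A: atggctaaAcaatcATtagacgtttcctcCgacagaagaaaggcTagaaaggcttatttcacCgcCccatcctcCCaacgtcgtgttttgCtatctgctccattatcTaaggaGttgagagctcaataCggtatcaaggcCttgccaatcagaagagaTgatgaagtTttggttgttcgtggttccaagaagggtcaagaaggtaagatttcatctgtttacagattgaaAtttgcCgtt
RPL26B: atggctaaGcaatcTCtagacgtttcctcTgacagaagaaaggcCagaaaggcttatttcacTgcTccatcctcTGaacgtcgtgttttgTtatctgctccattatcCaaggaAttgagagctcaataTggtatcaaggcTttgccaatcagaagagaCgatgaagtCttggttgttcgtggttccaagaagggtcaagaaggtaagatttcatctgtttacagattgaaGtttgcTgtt
RPL40A (chrIX:68708-69528, plus strand) and RPL40B (chrXI:617996-618750, minus strand) differ at 24 of 387 coding bases, 18 of them in bases 64 to 303.
RPL40A: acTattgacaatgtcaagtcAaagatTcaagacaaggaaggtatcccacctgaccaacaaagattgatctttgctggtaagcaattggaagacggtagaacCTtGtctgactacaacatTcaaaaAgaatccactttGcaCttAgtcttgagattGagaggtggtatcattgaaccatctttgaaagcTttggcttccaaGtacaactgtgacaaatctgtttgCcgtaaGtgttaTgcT
RPL40B: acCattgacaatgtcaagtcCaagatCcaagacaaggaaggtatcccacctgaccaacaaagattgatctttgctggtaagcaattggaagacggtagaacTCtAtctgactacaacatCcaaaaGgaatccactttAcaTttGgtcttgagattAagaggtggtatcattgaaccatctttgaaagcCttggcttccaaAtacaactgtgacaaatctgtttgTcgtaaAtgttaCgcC
The longest stretch without a difference was 147 bases in RPL14, 62 in RPL26 and 74 in RPL40. Coding identity over the 10 pairs ran from 78.9% in RPL22 to 96.4% in RPL14. RPL35A, RPL42B and RPL7B, whose other copies were not analysed, were closer still to them. The identity was 99.2% in RPL35A with an identical run of 302 bases, 98.1% in RPL42B with a run of 125, and 96.7% in RPL7B with a run of 245. How the authors treated reads that fit both copies is not given in the sources used here, so every value of a single copy carries that uncertainty. RPL7B also overlaps another annotated gene, the noncoding YNCP0003W, and its reads are uncertain for that reason too.

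A Rap1-like motif, written as CACCC, any 2 bases and ACA and searched on both strands, was in 2 of 38 windows of 300 bases around the start codon (250 before it and 50 after), or 5.3%, against 1.0% of 6020 windows of that length over all genes. In the 600 bases before the start codon it was in 13 members, or 34.2%, against 2.5% of all genes. Its wider form, CA, any base, CC, any 2 bases and ACA, which includes every match of the first, was in 22 members, or 57.9%, against 45.8% of the small-subunit genes and 7.0% of all genes. The wider form and the longer window were chosen after the first search. The 26 matches lay between 189 and 529 bases before the start codon, and the median over members of the match nearest to it was 335.5 bases. Matches of 6 members that were called or whose partner was called in the comparison of totals are printed with the 10 matched bases in capitals and 15 bases on either side, read along the strand that carries the motif.
RPL20B, chrXV:901527-901566, minus strand: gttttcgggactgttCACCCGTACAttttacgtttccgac
RPL26A, chrXII:818985-819024, plus strand: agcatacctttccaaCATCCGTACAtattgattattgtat
RPL27A, chrVIII:126088-126127, plus strand: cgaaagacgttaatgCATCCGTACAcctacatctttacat
RPL27B, chrIV:1401419-1401458, plus strand: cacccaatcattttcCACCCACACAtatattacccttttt
RPL40A, chrIX:68336-68375, plus strand: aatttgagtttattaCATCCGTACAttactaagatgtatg
RPL40B, chrXI:618969-619008, plus strand: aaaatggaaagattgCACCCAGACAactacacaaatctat
RPL26B and RPL18B were among the 16 members with no match of these letters in that window. Of the 22 members with a match 4 were higher and 3 lower in hybrid totals, and of the 16 without one 3 were higher and 1 lower. A match is a description of the letters and not a site shown to be bound.

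Total reads per library ran from 2692044 to 4183129, and the members took 3.73 to 4.0% of them. Levels are given in CPM, the reads of a gene per 1000000 reads of the scaled library, and log2 changes are given with SE, all with n = 2 libraries per group. Averages under 100 reads per library were found in 5 members (RPL6B, RPL21B, RPL26B, RPL27B and RPL43B), 15 had 100 to 1000 and 18 had 1000 or more. Reads were counted only where BY and RM differ, so a level also depends on how many such sites a gene has and levels cannot be compared between genes. All 38 members passed the filter on low counts in every comparison. Adjusted p-values come from edgeR's quasi-likelihood test, adjusted over all genes tested, and a gene was called at an adjusted p under 0.05. The libraries are technical replicates per the labels, so these p-values apply only to these samples and not to independent cultures. The test shares its estimate of variance over genes, so an SE need not follow the spread between a gene's own libraries. In RPL27A, for example, the log2 BY over RM was 0.23 and 1.01 in the co-culture libraries, with an SE of 0.19. What a replicate number stands for, a culture or a PCR reaction, is not in the labels.

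**Figure D1:**
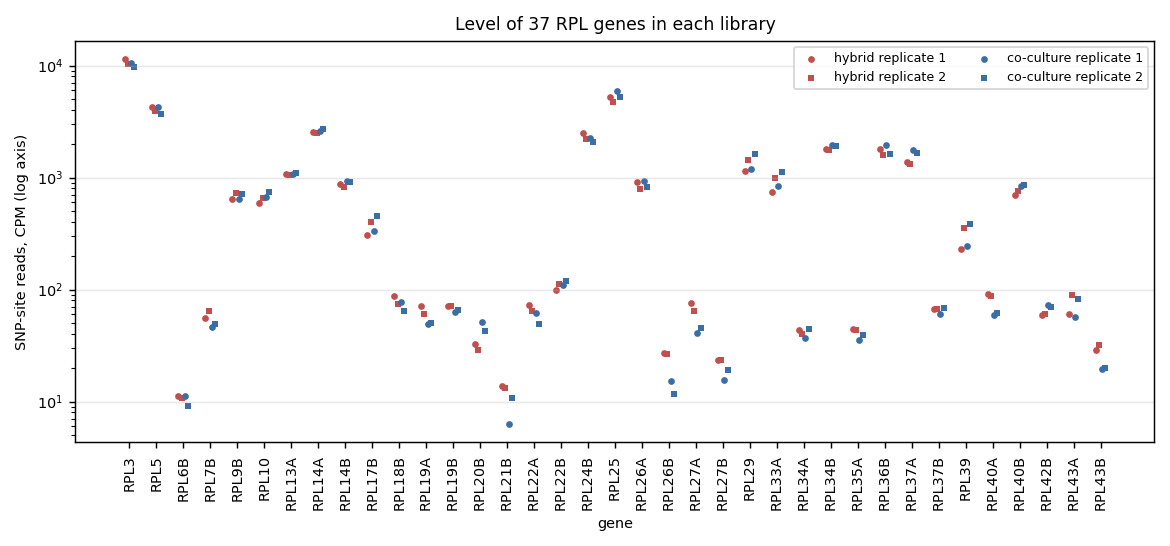
Level of 37 of the 38 RPL genes on the horizontal axis, in CPM on a log vertical axis, with 1 point per library (hybrid red, co-culture blue). Heights cannot be compared between genes, but within a gene the libraries show for example RPL26B at 27.2 and 26.6 CPM in the hybrid and at 15.2 and 11.6 CPM in the co-culture.

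Hybrid totals, BY plus RM reads, were compared with co-culture totals to see which members had another level in the diploid. Higher in the hybrid were 7 members, among them RPL26B, RPL27A, RPL43B, RPL40A, RPL19A and RPL7B, while 4 were lower (RPL20B, RPL37A, RPL40B and RPL10), and 27 were not called. Over all 4327 genes tested 35.7% were called, 17.8% higher and 17.9% lower, and of the members 28.9%. Which of these shares was the larger depended on how the replicates were modelled. The members' median log2 change was 0.03, and that of all genes was -0.02. The 7 members that were higher all had under 1000 reads per library, and 3 of the 4 that were lower had more. Scaled to column totals alone, 6 members were higher and 7 lower.

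RPL26B, which encodes uL24 at the rim of the exit tunnel, stood at 27.2 and 26.6 CPM in the hybrid and at 15.2 and 11.6 CPM in the co-culture. Both hybrid libraries lay above both co-culture libraries, and the log2 change of 1.01 ± 0.21 (adjusted p = 0.000159) was the largest among the 38. RPL27A, which encodes eL27, had 76.4 and 64.9 CPM in the hybrid against 41.0 and 45.5 CPM in the co-culture, a log2 change of 0.69 ± 0.13 (adjusted p = 7.11e-05). RPL40A, whose product is made as a fusion of ubiquitin with eL40, had 91.3 and 87.6 CPM against 59.1 and 61.8 CPM, a log2 change of 0.56 ± 0.11 (adjusted p = 0.000132). In each of these genes the groups did not overlap, and the libraries of a group lay closer to each other than to the other group. In RPL26B the co-culture libraries held only 41 and 37 reads, with a log2 difference of -0.39 from replicate 1 to replicate 2. RPL43B, for the zinc-binding eL43, had 29.0 and 32.3 CPM against 19.6 and 20.1 CPM, a log2 change of 0.64 ± 0.18 (adjusted p = 0.0059). RPL19A, for eL19 at a bridge between the subunits, changed by 0.39 ± 0.13 (adjusted p = 0.0153), with 71.3 and 61.1 CPM against 49.2 and 50.5 CPM. RPL7B, for uL30, changed by 0.35 ± 0.13 (adjusted p = 0.0358), and its hybrid libraries at 55.8 and 64.9 CPM also lay above its co-culture libraries at 46.6 and 49.0 CPM. The calls of RPL43B, RPL19A and RPL7B depended on single libraries. Without hybrid replicate 2 the change was 0.54 in RPL43B (adjusted p = 0.081) and 0.22 in RPL7B (adjusted p = 0.378), and 4 members in all were higher. RPL19A lost its call without hybrid replicate 1 (0.29, adjusted p = 0.154), and RPL7B without co-culture replicate 1 (0.33, adjusted p = 0.115) or 2 (0.38, adjusted p = 0.0793).

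RPL20B, which encodes eL20, was the member with the lowest hybrid level relative to the co-culture. It had 32.6 and 28.7 CPM in the hybrid and 51.4 and 42.4 CPM in the co-culture, a log2 change of -0.62 ± 0.16 (adjusted p = 0.00199). RPL37A, which encodes eL37, a small zinc-binding protein, had 1365.8 and 1310.5 CPM against 1748.9 and 1656.2 CPM, a log2 change of -0.35 ± 0.06 (adjusted p = 5.23e-06). The groups of both genes did not overlap, and RPL37A kept its call whichever library was left out. RPL40B had 699.7 and 759.3 CPM against 843.6 and 861.9 CPM, a log2 change of -0.22 ± 0.06 (adjusted p = 0.00196). RPL10, for uL16, which joins the subunit last in the cytoplasm and completes its active centre, had 594.0 and 655.4 CPM against 666.2 and 746.4 CPM, a log2 change of -0.18 ± 0.06 (adjusted p = 0.0254). The RPL10 groups lay close to each other, with 655.4 CPM as the highest hybrid value and 666.2 CPM as the lowest co-culture value. Without hybrid replicate 1 the changes were -0.11 in RPL10 (adjusted p = 0.297) and -0.17 in RPL40B (adjusted p = 0.0809). RPL10 also lost its call without co-culture replicate 2 (-0.09, adjusted p = 0.372), and RPL20B without co-culture replicate 1 (-0.46, adjusted p = 0.0655).

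Among the single genes RPL10 alone was called. RPL3, whose protein uL3 reaches the peptidyl transferase centre, changed by 0.11 ± 0.07 (adjusted p = 0.247), and RPL5, whose protein uL18 carries 5S rRNA into the subunit, by 0.04 ± 0.07 (adjusted p = 0.707). RPL25, whose protein uL23 is the docking point of chaperones at the tunnel exit, changed by -0.16 ± 0.07 (adjusted p = 0.069). RPL29 and RPL39, whose product eL39 lines the tunnel, had wide errors, with changes of -0.13 ± 0.25 and -0.10 ± 0.41. In RPL39 the libraries of a group lay farther apart than the groups, at 231.4 and 354.6 CPM in the hybrid and 245.5 and 388.2 CPM in the co-culture. A further 6 members not called had an unadjusted p under 0.05, so that 17 of 38 (44.7%) did, close to the 43.7% over all genes tested.

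**Figure D2:**
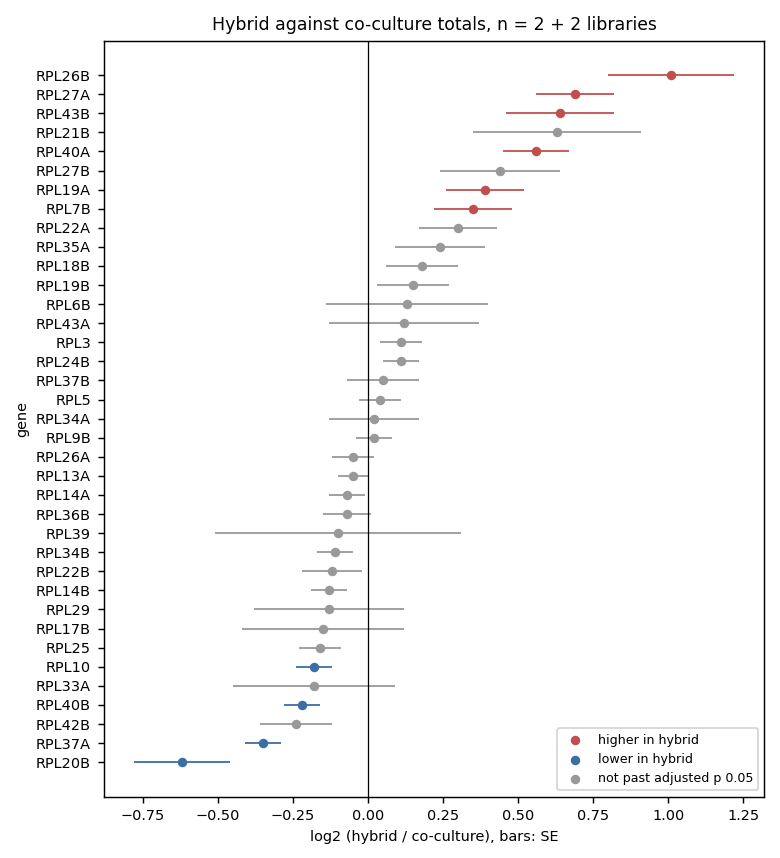
Log2 ratio of hybrid to co-culture totals for 37 of the 38 genes, with bars of 1 SE (n = 2 libraries per group). Red genes were called higher and blue genes lower in the hybrid, grey genes did not pass an adjusted p of 0.05, and the points run from -0.62 in RPL20B to 1.01 in RPL26B.

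The balance between the copies of a pair was described as the share of A reads in the reads of the pair, with 95% Wilson intervals that cover counting error only. RPL26A held 97.1% (96.4 to 97.7) and 96.7% (96.1 to 97.3) of the RPL26 reads in the hybrid and 98.4% (97.8 to 98.8) and 98.6% (98.1 to 99.0) in the co-culture. RPL40A held 11.5% (10.3 to 12.9) and 10.3% (9.4 to 11.4) of the RPL40 reads in the hybrid and 6.6% (5.6 to 7.6) and 6.7% (5.8 to 7.7) in the co-culture. In both pairs the copy with fewer counted reads had a larger share in the hybrid, and neither the groups nor the intervals overlapped. The groups, but not the intervals, were also apart in 5 further pairs (RPL19, RPL22, RPL27, RPL37 and RPL43), so that groups did not overlap in 7 of 10 pairs. In RPL27 the copy with more counted reads, RPL27A, had the larger share in the hybrid (76.4% and 73.2%, against 72.5% and 70.4%). Of 11 other pairs in the files whose names differ only by A and B, 5 (45.5%) did not overlap either, and nothing particular to the 10 pairs is read from the count. RPL22A, whose product eL22 is not essential, held 42.4% and 36.7% of its pair in the hybrid and 35.9% and 29.2% in the co-culture. RPL43A held 67.5% and 73.4% against 74.4% and 80.3%. Shares of RPL14A and RPL34A were among those that overlapped between the groups, with RPL34A at 1.9 to 2.3% in every library.

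Adding the reads of both copies into 1 row gives a value that does not depend on the copy to which a counted read was assigned. Reads left out because they fit both copies, if there were any, are missing from the sum too. The sum was higher in the hybrid for RPL27 (0.62 ± 0.11, adjusted p = 2.56e-05) and RPL19 (0.27 ± 0.09, adjusted p = 0.0202). It was lower for RPL37 (-0.33 ± 0.06, adjusted p = 1.19e-05) and RPL40 (-0.15 ± 0.06, adjusted p = 0.0326). The sums of RPL26 (-0.03 ± 0.07, adjusted p = 0.789) and RPL43 (0.26 ± 0.16, adjusted p = 0.247) were not called, although RPL26B and RPL43B were. For RPL40 the copies were called in opposite directions and the sum followed RPL40B, which holds most of the counted reads.

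**Figure D3:**
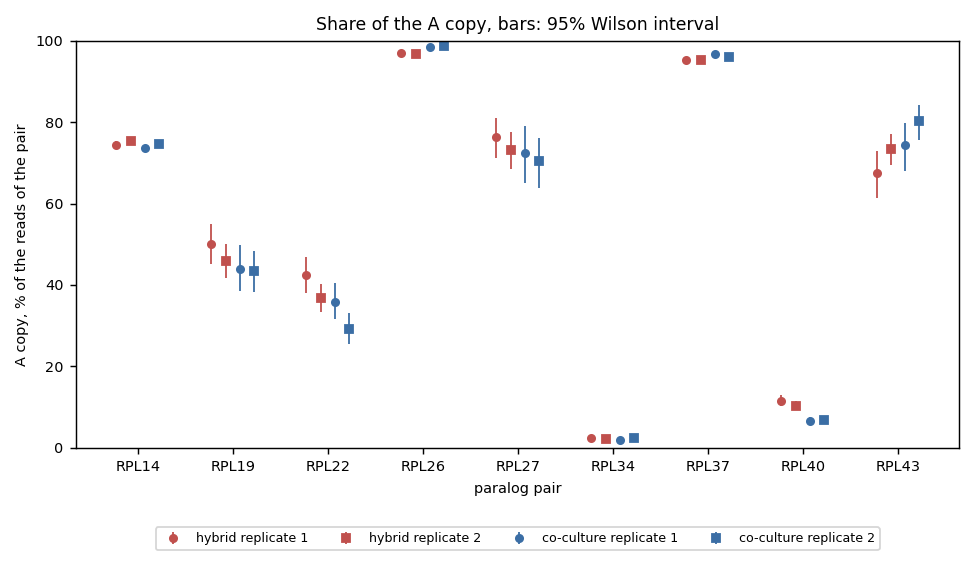
Share of the A copy, in % of the reads of the pair, in each library of 9 of the 10 pairs, with 95% Wilson intervals (hybrid red, co-culture blue). RPL40A drops from 11.5% and 10.3% in the hybrid to 6.6% and 6.7% in the co-culture, while RPL14A stays between 73.6% and 75.3%.

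Related gene groups gave other counts in the same comparison, where 17.8% of all genes tested were higher and 17.9% lower. Among all genes with 1000 reads or more 41.9% were higher. Unlike the members, the lists of assembly factors and of chaperones kept genes on chromosome XIII, such as ERB1 and PSE1. Of 24 small-subunit genes 13 were higher and 0 lower in the hybrid, with a median log2 change of 0.34, and 15 had an unadjusted p under 0.05. Among them RPS26B changed by 1.31 ± 0.17 (adjusted p = 5.85e-08) and RPS29A by 0.90 ± 0.16 (adjusted p = 3.03e-05). Of 4 stalk protein genes RPP0, the stalk base, was called (0.32 ± 0.09, adjusted p = 0.0165). Genes listed as assembly factors of the large subunit were higher in 56 of 64 cases and lower in 0, with a median of 0.38. The list also held PRP22, a splicing helicase. SPB1, an rRNA methyltransferase, changed by 0.63 ± 0.06 (adjusted p = 2.09e-10). Genes that regulate ribosomal protein genes were higher in 7 and lower in 1 of 20 cases. SCH9 changed by 0.61 ± 0.08 (adjusted p = 5.74e-08) and SFP1, an activator of these promoters, by 0.32 ± 0.06 (adjusted p = 0.000127), while RAP1 (0.18 ± 0.10, adjusted p = 0.14) and FHL1 (0.19 ± 0.11, adjusted p = 0.204) were not called. Chaperones and import factors of ribosomal proteins were higher in 5 and lower in 1 of 12 cases, and mitochondrial large-subunit genes were higher in 9 and lower in 0 of 19. Whether the large-subunit genes differ from these groups was not tested.

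The ratio of BY to RM reads in the co-culture compares the haploid parents, with BY columns and RM columns scaled separately. Scaling them apart takes out the mixing ratio, and fewer cells of a strain and less RNA per cell cannot be told apart by it. The ratio of a gene also depends on how its reads were assigned to a strain, which was not tested. Of 38 members 10 had more BY reads and 19 more RM reads. Over the 4269 genes tested 44% were called, 20.6% higher in BY and 23.4% lower. The members' median log2 ratio was -0.10, against 0 over all genes. Their split depended on scaling, with 14 higher and 15 lower under column totals alone and 13 higher and 15 lower under library totals shared by both alleles.

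RPL14B, which encodes eL14, stood apart from every other member. It had 2501 BY and 41 RM reads in co-culture replicate 1 and 2857 BY and 55 RM reads in replicate 2, so BY held 98.4% (97.8 to 98.8) and 98.1% (97.5 to 98.5). In the hybrid it had 2348 BY and 66 RM reads in replicate 1 and 3320 BY and 132 RM reads in replicate 2, with BY at 97.3% (96.5 to 97.8) and 96.2% (95.5 to 96.8). The RM allele was thus nearly without reads in all 4 libraries, and the log2 ratio was 5.74 in the co-culture and 4.86 in the hybrid. No SE is given for these 2 ratios, because the form used here falls below the counting error of so few RM reads. Its partner RPL14A was close to balance, with BY at 47.6% and 48.4% in the co-culture and 53.1% and 52.6% in the hybrid. The summed pair had a log2 ratio of 0.58 ± 0.03 in the co-culture and 0.83 ± 0.03 in the hybrid. Whether the few RM reads of RPL14B reflect transcription or the assignment of reads between the strains and copies was not tested.

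Of the other members with more BY reads in the co-culture, RPL20B had the largest ratio past 50 reads per library. Its log2 BY over RM was 1.57 and 1.04 in the co-culture libraries and 0.01 and -0.41 in the hybrid libraries, and the co-culture ratio was 1.30 ± 0.19 (adjusted p = 1.59e-10). RPL42B, which encodes eL42 near the exit site of tRNA, had 1.03 in both co-culture libraries and 0.03 and -0.10 in the hybrid (1.03 ± 0.15, adjusted p = 4.53e-11). In both genes the strains differed in the co-culture, and the hybrid libraries lay near 0 or below. RPL43B (0.83 ± 0.28, adjusted p = 0.00962), RPL27A (0.65 ± 0.19, adjusted p = 0.00174), RPL35A (0.63 ± 0.21, adjusted p = 0.00669) and RPL40A (0.63 ± 0.16, adjusted p = 0.000253) also had more BY reads. So did RPL6B, RPL21B and RPL19B, at 1.12 ± 0.42, 1.07 ± 0.44 and 0.37 ± 0.15. Without co-culture replicate 1 only 5 members were called higher, and without replicate 2 only 4. RPL14B, RPL20B and RPL42B kept their calls whichever library was left out. RPL43B fell to an adjusted p of 0.177 without co-culture replicate 1 (0.68) and 0.0695 without replicate 2 (1.02). RPL35A had 0.27 (adjusted p = 0.472) without replicate 1, and without replicate 2 RPL27A had 0.23 (adjusted p = 0.594) and RPL40A 0.56 (adjusted p = 0.073). RPL6B, RPL21B and RPL19B lost their calls without either co-culture replicate (adjusted p 0.0658 to 0.41), and RPL21B also without either hybrid replicate (adjusted p = 0.0518 and 0.0547).

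Among the 19 members with more RM reads, RPL9B, which encodes uL6, had the largest difference. BY held 33.5% (31.3 to 35.8) and 34.6% (32.6 to 36.5) of its reads in the co-culture libraries and 49.8% (47.5 to 52.1) and 47.5% (45.7 to 49.3) in the hybrid libraries. Its log2 ratio was -1.01 ± 0.05 in the co-culture (adjusted p = 5.67e-80) and -0.07 ± 0.05 in the hybrid (adjusted p = 0.303). RPL9B was thus RM-biased between the strains and close to balance in the diploid. RPL22A (-0.73 ± 0.17, adjusted p = 4.28e-05) and RPL7B (-0.51 ± 0.18, adjusted p = 0.0118) also had more RM reads, and the single gene RPL5 had -0.43 ± 0.03 (adjusted p = 9.18e-62). RPL40B (-0.38 ± 0.05), RPL13A (-0.37 ± 0.04), RPL33A (-0.31 ± 0.04), RPL3 (-0.31 ± 0.02), RPL29 (-0.29 ± 0.04), RPL34B (-0.28 ± 0.03), RPL17B (-0.25 ± 0.07), RPL24B (-0.22 ± 0.03) and RPL39 (-0.20 ± 0.07) lay in a narrow range. RPL14A, RPL25, RPL37A, RPL26A and RPL36B were smaller still, between -0.17 and -0.09. RPL22A lost its call without co-culture replicate 1 (-0.57, adjusted p = 0.0593), as did RPL37A (-0.09, adjusted p = 0.186), and RPL7B without replicate 1 (-0.58, adjusted p = 0.0912) or 2 (-0.43, adjusted p = 0.264). Without replicate 2 RPL17B (-0.26, adjusted p = 0.0575) and RPL39 (-0.09, adjusted p = 0.623) were not called, and RPL36B was not called without either co-culture replicate (adjusted p = 0.207 and 0.122). RPL26A passed narrowly (adjusted p = 0.049) and lost its call without any 1 library (adjusted p 0.0509 to 0.322).

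**Figure D4:**
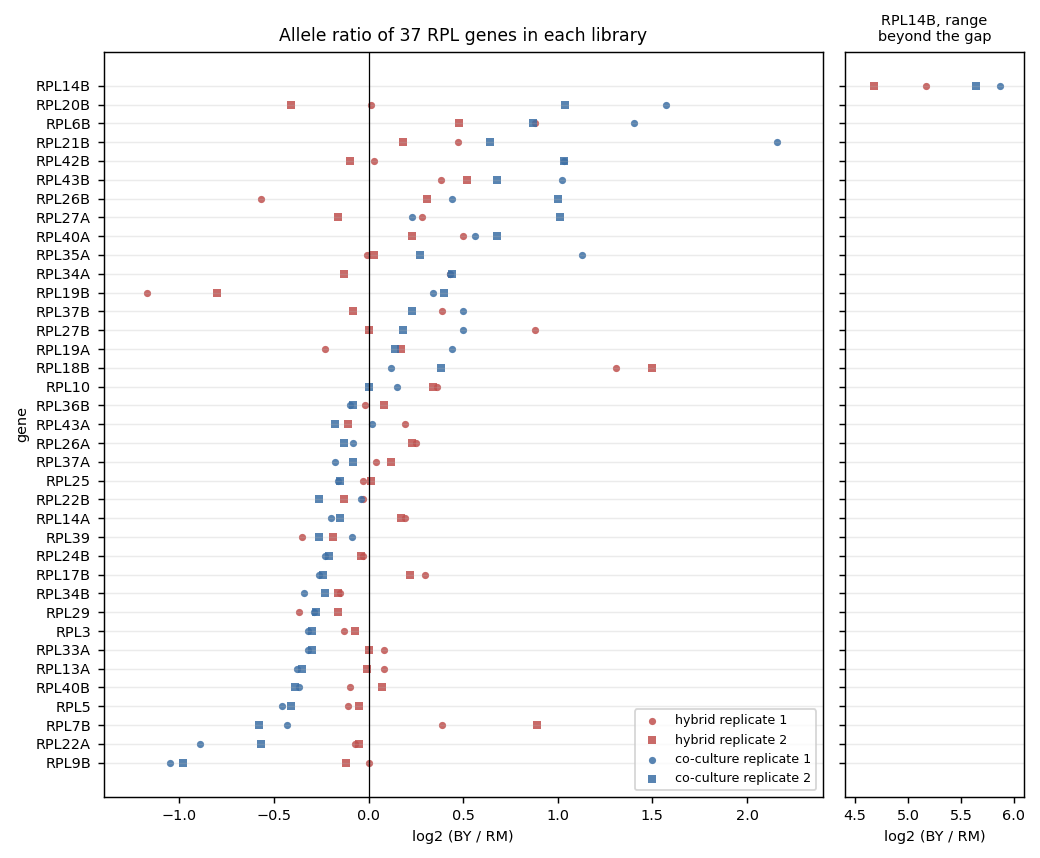
Log2 ratio of BY to RM reads in each library for 37 of the 38 genes, ordered by the co-culture ratio, with RPL14B on a separate stretch of the same axis (hybrid red, co-culture blue). RPL14B lies at 4.68 to 5.87 in all libraries, and in RPL9B the co-culture libraries at -1.05 and -0.98 are apart from the hybrid libraries at 0 and -0.12.

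In the hybrid, where both alleles share a nucleus, 8 members had more BY reads and 7 more RM reads. Over the 4269 genes tested 28.9% were called, 13.7% higher in BY and 15.2% lower, and the members' median was 0.02 against 0.01 over all genes. After RPL14B the largest BY ratio was that of RPL18B, with log2 values of 1.31 and 1.5 in the hybrid and 0.12 and 0.38 in the co-culture (hybrid ratio 1.42 ± 0.13, adjusted p = 2.16e-25). RPL7B (0.70 ± 0.15, adjusted p = 1.7e-05), RPL10 (0.35 ± 0.05, adjusted p = 2.25e-11), RPL40A (0.34 ± 0.12, adjusted p = 0.0166), RPL17B (0.25 ± 0.06, adjusted p = 0.00053), RPL26A (0.24 ± 0.04, adjusted p = 5.2e-07) and RPL14A (0.18 ± 0.03, adjusted p = 1.77e-09) also had more BY reads. RPL19B had the largest RM ratio, with -1.17 and -0.80 in the hybrid libraries and 0.34 and 0.40 in the co-culture libraries (hybrid ratio -0.94 ± 0.14, adjusted p = 4.75e-11). It was the 1 member called in opposite directions with the higher BY ratio in the co-culture. Smaller RM ratios ran from -0.08 ± 0.02 in RPL5 and -0.10 ± 0.02 in RPL3 to -0.16 ± 0.03 in RPL34B and -0.24 in both RPL29 (± 0.04) and RPL39 (± 0.07).

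Of these 15 members 7 lost their call in 1 or more of the fits that left out 1 library, and 8 kept it in all 4. Without hybrid replicate 1 the count was 6 higher and 4 lower, and without hybrid replicate 2 it was 5 higher and 6 lower. RPL40A (0.22, adjusted p = 0.369), RPL17B (0.21, adjusted p = 0.0598), RPL39 (-0.19, adjusted p = 0.116), RPL3 (-0.08, adjusted p = 0.0539) and RPL5 (-0.06, adjusted p = 0.281) were not called without replicate 1. Without replicate 2 RPL7B (0.39, adjusted p = 0.337), RPL40A (0.50, adjusted p = 0.0582) and RPL17B (0.30, adjusted p = 0.0519) were not called. RPL14B, RPL18B and RPL19B, the members with the largest hybrid ratios, kept their calls.

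The difference between the co-culture ratio and the hybrid ratio was tested directly as an interaction of allele and culture. It was called in 23 of 38 members, with the co-culture ratio higher in 5 and lower in 18. Over the 4269 genes tested 27.6% were called, 13.3% higher and 14.3% lower, and the median was -0.11 for the members and 0.01 for all genes. The members' share of calls was above that of all genes, and the excess lay in the lower direction, which was also the commoner one among all genes with 1000 reads or more (44% lower, 18.4% higher). RPL20B (1.52 ± 0.29, adjusted p = 1.33e-06), RPL19B (1.31 ± 0.20, adjusted p = 2.05e-09), RPL42B (1.08 ± 0.21, adjusted p = 3.01e-06), RPL14B (0.88 ± 0.18, adjusted p = 9.38e-06) and RPL27A (0.62 ± 0.23, adjusted p = 0.0324) had the higher BY ratio in the co-culture. For RPL27A the library ratios overlapped, at 0.23 and 1.01 in the co-culture and 0.28 and -0.16 in the hybrid. The RPL14B difference rested on 41 and 55 RM reads in the co-culture libraries and 66 and 132 in the hybrid libraries. The summed RPL14 pair was called in the other direction (-0.25 ± 0.04, adjusted p = 1.98e-10). RPL7B (-1.21 ± 0.23, adjusted p = 2.17e-06), RPL18B (-1.17 ± 0.20, adjusted p = 6.88e-08) and RPL9B (-0.94 ± 0.07, adjusted p = 8.31e-38) led the lower group. RPL7B changed sides, with -0.43 and -0.58 in the co-culture and 0.39 and 0.89 in the hybrid. RPL22A (-0.68 ± 0.22, adjusted p = 0.00894), RPL17B (-0.49 ± 0.09, adjusted p = 7.58e-07) and RPL13A (-0.39 ± 0.06, adjusted p = 2.54e-10) came next, and the other 12 lay between -0.38 and -0.13. Without hybrid replicate 2 the count was 3 higher and 14 lower, with RPL14B at 0.58 (adjusted p = 0.0984), RPL27A at 0.38 (adjusted p = 0.452) and RPL22A at -0.66 (adjusted p = 0.0903). RPL22A was not called without co-culture replicate 1 (-0.52, adjusted p = 0.184), nor RPL27A without co-culture replicate 2 (0.19, adjusted p = 0.739). RPL20B, RPL19B, RPL42B, RPL7B, RPL18B and RPL9B kept their calls whichever library was left out. By DESeq2's test RPL20B (1.5, adjusted p = 0.0643), RPL42B (1.06, adjusted p = 0.0885) and RPL7B (-1.17, adjusted p = 0.0934) were not called. Nor was RPL14B (0.84, adjusted p = 0.089), while RPL19B, RPL18B and RPL9B kept their calls there too.

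Comparing each allele between the cultures shows which allele moved. The BY allele was higher in the hybrid in 11 members and lower in 4, against 37.3% called over 4215 genes (19.5% higher, 17.8% lower). The RM allele was higher in 8 and lower in 10, against 27.9% called over 4188 genes (13.8% higher, 14.1% lower). Under column totals alone 8 BY alleles were higher and 6 lower. These comparisons share their libraries with those above and are given side by side, not as further support. In RPL20B the BY allele went from 76.0 and 56.1 CPM in the co-culture to 32.9 and 24.8 CPM in the hybrid (-1.22 ± 0.20, adjusted p = 2.26e-05), while the RM allele had 25.6 and 27.3 CPM against 32.6 and 33.0 CPM and was not called. In RPL42B the BY allele was lower in the hybrid too (-0.67 ± 0.14, adjusted p = 0.000334). That allele had 97.0 and 92.2 CPM in the co-culture and 60.0 and 59.4 CPM in the hybrid. The RM allele of RPL42B lay higher in both hybrid libraries than in either co-culture library, without a call (0.39 ± 0.18, adjusted p = 0.0938). In RPL9B both alleles moved, BY higher in the hybrid (0.58 ± 0.07, adjusted p = 2.86e-07) and RM lower (-0.38 ± 0.07, adjusted p = 9.95e-05). Those opposite changes left its total at a log2 change of 0.02 ± 0.06. RPL19B had the reverse, with BY lower (-0.57 ± 0.16, adjusted p = 0.00617) and RM higher (0.74 ± 0.15, adjusted p = 0.000117). RPL18B had BY higher (0.61 ± 0.13, adjusted p = 0.000409) and RM lower (-0.57 ± 0.18, adjusted p = 0.0166). In RPL7B the BY allele alone was called (0.94 ± 0.18, adjusted p = 0.000123), as in RPL22A (0.68 ± 0.17, adjusted p = 0.00211).

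Among the pairs named for their totals, RPL26B was higher in both alleles, with the RM allele at 32.6 and 23.9 CPM in the hybrid and 12.8 and 7.6 CPM in the co-culture (1.43 ± 0.31, adjusted p = 0.000349). Its BY allele changed by 0.69 ± 0.27 (adjusted p = 0.0437). RPL40A was higher in both alleles too (BY 0.45 ± 0.13, adjusted p = 0.00776, and RM 0.72 ± 0.16, adjusted p = 0.000502). Its partner RPL40B was lower in the RM allele (-0.40 ± 0.06, adjusted p = 2.06e-06). RPL37A was lower in both (BY -0.24 ± 0.06, adjusted p = 0.00224, and RM -0.46 ± 0.06, adjusted p = 1.19e-07). RPL27A and RPL43B were called in the RM allele (1.02 ± 0.19, adjusted p = 2.09e-05, and 0.87 ± 0.28, adjusted p = 0.0171). Their BY alleles changed in the same direction without a call (0.43 ± 0.18, adjusted p = 0.0587, and 0.51 ± 0.22, adjusted p = 0.0693). RPL14B was not called in totals (-0.13 ± 0.06, adjusted p = 0.0766). Its RM allele was called higher (0.75 ± 0.20, adjusted p = 0.00314, from 30.9 and 34.9 CPM to 47.8 and 63.1 CPM). Single libraries mattered here as well. Without hybrid replicate 1 the BY allele was higher in 7 members, and RPL19B had -0.46 (adjusted p = 0.0532) and RPL40A 0.39 (adjusted p = 0.0552). The BY call of RPL26B was lost without hybrid replicate 2 (0.43, adjusted p = 0.426), co-culture replicate 1 (0.78, adjusted p = 0.0623) or co-culture replicate 2 (0.59, adjusted p = 0.188). The RM allele was higher in 5 members without hybrid replicate 2, where RPL14B had 0.51 (adjusted p = 0.186), RPL18B -0.37 (adjusted p = 0.274) and RPL43B 0.82 (adjusted p = 0.116). It was also higher in 5 without co-culture replicate 1, where RPL18B had -0.35 (adjusted p = 0.294) and RPL43B 0.75 (adjusted p = 0.113).

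**Figure D5:**
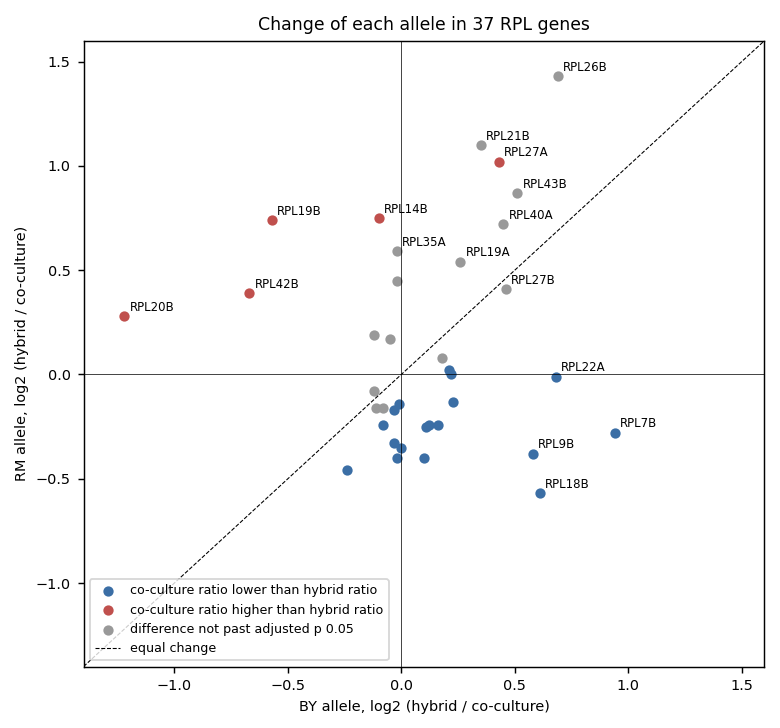
Log2 change from co-culture to hybrid of the BY allele (horizontal axis) and of the RM allele (vertical axis) in 37 of the 38 genes, with a dashed line where both change equally. Blue genes had a lower and red genes a higher ratio of BY to RM in the co-culture than in the hybrid, grey genes no called difference, and RPL20B and RPL7B lie farthest to either side at -1.22 and 0.94 for the BY allele.

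The ratios divided by the number of reads a gene had, a split at 1000 reads per library chosen after the counts were seen. Of the 18 members with 1000 reads or more, 16 had more RM reads in the co-culture and 1 (RPL14B) more BY reads, with a median of -0.24. Of all 695 genes with as many reads, 51.8% were lower and 22.6% higher, with a median of -0.14. Of the 20 members under 1000 reads 9 had more BY reads and 3 more RM reads, with a median of 0.40. Of all 3574 genes under 1000 reads 20.3% were higher and 17.8% lower, with a median of 0.03. In the hybrid the medians were 0.01 and 0.02 for the members with more and with fewer reads. The interaction was lower in 15 and higher in 1 of the 18, and lower in 3 and higher in 4 of the 20. Over all genes it was lower in 44% and higher in 18.4% of the 695 with as many reads, and lower in 8.56% and higher in 12.3% of those with fewer. In totals the 20 had 7 higher and 1 lower with a median of 0.27, and the 18 had 0 higher and 3 lower with a median of -0.11. Of all 695 genes with 1000 reads or more 41.9% were higher and 18% lower in totals, and of all genes with fewer 13.2% were higher and 17.9% lower, so the 3 of 18 (16.7%) lay at the background. Whether read number, read assignment or the genes themselves account for this split was not tested. Introns moved with it, since the 6 members without an intron had a median of 5818.2 reads per library and the 32 with one 228.6.

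Summed over all 38 members, BY held 50% and 50.4% of the reads in the hybrid and 47.7% and 48.0% in the co-culture. Leaving out RPL14B, an alternative added after the data were seen, the shares were 49.0% and 49.4% in the hybrid and 46.5% and 46.8% in the co-culture. The hybrid libraries lay above the co-culture libraries either way, while over all genes BY held 49.51 to 49.62% of the reads in every library. The 18 members with 1000 reads or more set this sum, with BY at 50% and 50.4% in the hybrid and 47.5% and 47.8% in the co-culture. The 20 members with fewer reads went the other way in the co-culture, with 55.8% and 54.1% BY reads against 52.1% and 50.4% in the hybrid.

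Setting the calls of both cultures side by side, 6 members, RPL3, RPL5, RPL29, RPL34B and RPL39 among them, had more RM reads in both and 2 (RPL14B and RPL40A) more BY reads in both. In 4 members (RPL7B, RPL14A, RPL17B and RPL26A) there were more RM reads in the co-culture and more BY reads in the hybrid, and RPL19B had the opposite. RPL10 and RPL18B were called in the hybrid alone, both with more BY reads, and the difference between the cultures was itself called in both. The 7 members called in neither culture were RPL19A, RPL22B, RPL26B, RPL27B, RPL34A, RPL37B and RPL43A, and their reads per library averaged between 66 and 355.2. How all genes divide over these classes was not counted, so nothing particular to the members is read from these counts.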

How the data were processed

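Polyadenylated RNA was sequenced in 2 hybrid and 2 co-culture libraries. The deposited values are raw counts of reads at sites where BY and RM differ, per the file headers, with 1 column for each strain. CASAVA 1.8.2 and Bowtie are named in the submitters' processing notes, and how reads that fit several places were handled is not given in the sources used here, nor are the build, SNP set and strand. Per the labels' protocols, libraries came from 5 µg of total RNA fragmented at 94 °C for 8 min and primed at random, and each was amplified in 2 separate PCR reactions of 12 cycles. The PCR reads carry no molecular identifiers, so intervals cover counting error only.

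Names, introns and sequences came from the RefSeq annotation of S288C, R64, matched by systematic name for 4325 of 4442 gene pairs. Members and gene lists were chosen with earlier results of these data known. The test was edgeR 4.0.16 in R 4.3.3 (glmQLFit and glmQLFTest, two-sided, robust) with TMM scaling, a minimum count of 10 in filterByExpr and p-values adjusted by Benjamini-Hochberg over the whole table, at 0.05. Totals were fitted by culture. Allele ratios were fitted on 8 columns, BY and RM of each library, with a block for the library. SE is the log2 change over the root of F, which is too small for a ratio as extreme as that of RPL14B. Named members were up to 6 rises and 6 falls per comparison that had a mean of 50 reads or more and one direction in every pair of libraries, with their partners and the single genes. Further called members are named beside them. Values of 1 member are not reported here, though the counts over all members and pairs include it. The scripts were tested on simulated data. Alternatives were DESeq2 1.42.0, other scalings, filters and blocks, summed pairs, a fit without chromosome XIII and each library left out. Libraries of a group differed beyond sampling noise, with a chi-square per degree of freedom of 2.75 (hybrid) and 2.7 (co-culture). The search in 600 bases, the split at 1000 reads and the sums without RPL14B were added after seeing the data.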

Additional observations from a re-analysis of the deposited data

Results flagged for a closer look

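The BY over RM ratio of 23 members differed between the cultures by the test of that difference, given here as the log2 ratio in the co-culture minus that in the hybrid. It was higher in the co-culture for RPL20B (1.52), RPL19B (1.31), RPL42B (1.08), RPL14B (0.88) and RPL27A (0.62). For the summed RPL14 pair the difference was lower (-0.25). Members with a lower ratio in the co-culture were RPL7B (-1.21), RPL18B (-1.17), RPL9B (-0.94), RPL22A (-0.68), RPL17B (-0.49), RPL13A (-0.39) and RPL40B (-0.38). Smaller differences in the same direction were found for RPL5 (-0.35), RPL14A (-0.35), RPL26A (-0.34), RPL33A (-0.34), RPL10 (-0.29), RPL3 (-0.21), RPL37A (-0.21), RPL24B (-0.19), RPL25 (-0.14), RPL34B (-0.13) and RPL36B (-0.13). Of these 23, 7 lost their call in 1 or more of the fits that left out 1 library (RPL10, RPL14B, RPL22A, RPL27A, RPL34B, RPL36B and RPL37A) and 16 kept it in all 4.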

How the results depend on the processing

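No called member changed direction in the alternatives that kept its own row, and of 1402 such repeats 1201 stayed past the threshold. Some of these repeats left out a library of the culture that was not compared. Copies of summed pairs were not counted there, and a sum could have the other sign. Examples are RPL40 totals (-0.15, against 0.56 in RPL40A) and the RPL14 difference of ratios (-0.25, against 0.88 in RPL14B). DESeq2 called fewer members, with 3 higher and 2 lower for totals, 3 and 12 for BY over RM in the co-culture, 5 and 2 in the hybrid, 1 and 10 for the difference of these ratios, 5 higher for the BY allele, and 4 and 5 for the RM allele. Without the library block 11 co-culture ratios, 2 hybrid ratios and 9 differences were lower. With summed pairs, which leave fewer rows, 4 were higher for totals, 3 for the difference and 3 for the RM allele. Column totals alone gave 7 lower totals. Leaving out 1 library gave 4 to 8 higher and 3 to 5 lower totals, 4 to 9 and 14 to 18 co-culture ratios, 5 to 8 and 4 to 7 hybrid ratios, 3 to 5 and 14 to 17 differences, 7 to 12 and 3 to 6 BY alleles, and 5 to 10 and 9 to 11 RM alleles. Each of these fits leaves 1 library in a group, which is assumed to vary like the other group. With a replicate block 11 totals were higher and 14 lower, or 65.8% of the members against 46.3% of all genes, where without it they were 28.9% against 35.7%, and 7 BY alleles were lower. Same-numbered libraries deviated together over 3869 genes (r = 0.32) and over the 38 members (r = 0.69), but with 2 numbers and no label that pairs them this is a hint only. Where no cause is named here, the cause was not tested. Counts under 100 reads limit RPL6B, RPL21B, RPL26B, RPL27B and RPL43B.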

Other observations

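Several members differed between replicates 1 and 2 with the same sign in either culture. RPL39 was higher in replicate 2 than in replicate 1 by a log2 difference of 0.62 (hybrid) and 0.66 (co-culture). RPL43A was higher by 0.57 and 0.53, RPL33A by 0.42 and 0.41, RPL17B by 0.39 and 0.43, and RPL29 by 0.32 and 0.45. RPL18B was lower in replicate 2 in both, at -0.24 and -0.28, as was RPL36B at -0.19 and -0.25. None of these 7 was called in totals, and the labels do not say what the replicate numbers stand for.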
